A study of Zea mays with 6 samples.

Results

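The genes described here assimilate ammonium in the maize mesocotyl: the glutamine synthetases gln1, gln2, gln5 and GLN6, the asparagine synthetase asn1 and the glutamate dehydrogenase gdh1. They were chosen by gene symbol, with earlier results of these data known. Their 6 symbols matched 7 of the 17734 probe sets on the array, with asn1 measured by 2 probe sets and each other gene by 1. Transcripts were measured on 6 Affymetrix maize arrays with RNA from the mesocotyl, the seedling axis below the coleoptile, of the inbred line 3681-4. The groups were GA3 (treated with that gibberellin), UCZ (treated with UCZ, which the series calls an inhibitor of gibberellin synthesis) and control, with 2 arrays each that the labels call biological replicates. All plants, the controls included, were sown 20 cm deep, kept in darkness and sampled at 10 days. The sources used here do not give doses or the time of application. With 2 arrays a group, precision is limited throughout.

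Plants take nitrogen into organic form mainly through glutamine synthetase, which joins ammonium to glutamate at the cost of ATP. The plastid form, GS2, takes up ammonium from nitrite reduction and photorespiration in leaves, while the cytosolic GS1 forms work in roots, vascular tissue and remobilizing organs. Asparagine synthetase then moves the amide nitrogen of glutamine to aspartate, and the asparagine made stores and carries nitrogen with little carbon. In many plants its genes are active in darkness and under sugar shortage. Glutamate dehydrogenase catalyses a reversible reaction and is thought to work mostly in the direction that releases ammonium from glutamate and returns its carbon to respiration.

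Across the series, the median signal lay between 195.6 and 201.4 on the GA3 arrays, 183.1 and 189.0 on the UCZ arrays, and 199.6 and 203.2 on the control arrays. For actin, the ratio of 3′ to 5′ signal, which grows as RNA degrades, was 4.64 and 3.40 in GA3 (replicates 1 and 2). It was 4.14 and 3.11 in UCZ and 3.58 and 2.76 in control. The ratio was thus higher in replicate 1 in every group, and higher on each treated array than on the same-numbered control. Its part in the results below was not tested. The bacterial poly-A control probe sets, for transcripts added to the RNA before labelling in this array system, were brighter in UCZ than in the same-numbered control by log2 differences of 0.65 and 0.71. In GA3 these differences were −0.02 and −0.26. With arrays scaled to the poly-A controls, the median over all probe sets tested became −0.68 (log2) in UCZ versus control, 0.15 in GA3 versus control and 0.83 in GA3 versus UCZ, so each change below is relative to the bulk of the transcripts on its array. Such scaling shifts all genes of an array alike. A change relative to the median of all probe sets is therefore nearly the same with or without it, whatever the genes do. Over the 69 changes of members and named list genes examined, each kept its sign relative to that median, which is no test of the scaling. In RNA from whole mesocotyls, fewer cells of a type and less RNA per cell cannot be told apart. Levels of different probe sets are not comparable with each other, so values are set side by side only for the same probe set.

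UCZ mesocotyls had more transcript of gln1 and GLN6 and less of asn1 and gdh1 than control mesocotyls. Called here means an adjusted p under 0.05 in limma with Benjamini-Hochberg adjustment over the 10573 probe sets kept, and all 7 member probe sets passed that filter on dim signals. In UCZ versus control, 2 members were higher and 2 were lower among the 7, while 6.44% of all probe sets tested were called higher and 8.97% lower (15.4% in either direction). In GA3 versus UCZ, 3 members were higher and 2 lower, beside 7.61% and 6.33% of all probe sets (13.9% together). In GA3 versus control limma called none of the 7, beside 0.482% called higher and 0.842% lower among all probe sets (1.32% together), and 2 of the 7 had an unadjusted p under 0.05. The share of all probe sets with an unadjusted p under 0.05 was not counted, for this or the lists below. The comparisons of GA3 and of UCZ with control share the control arrays.

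**Figure D1:**
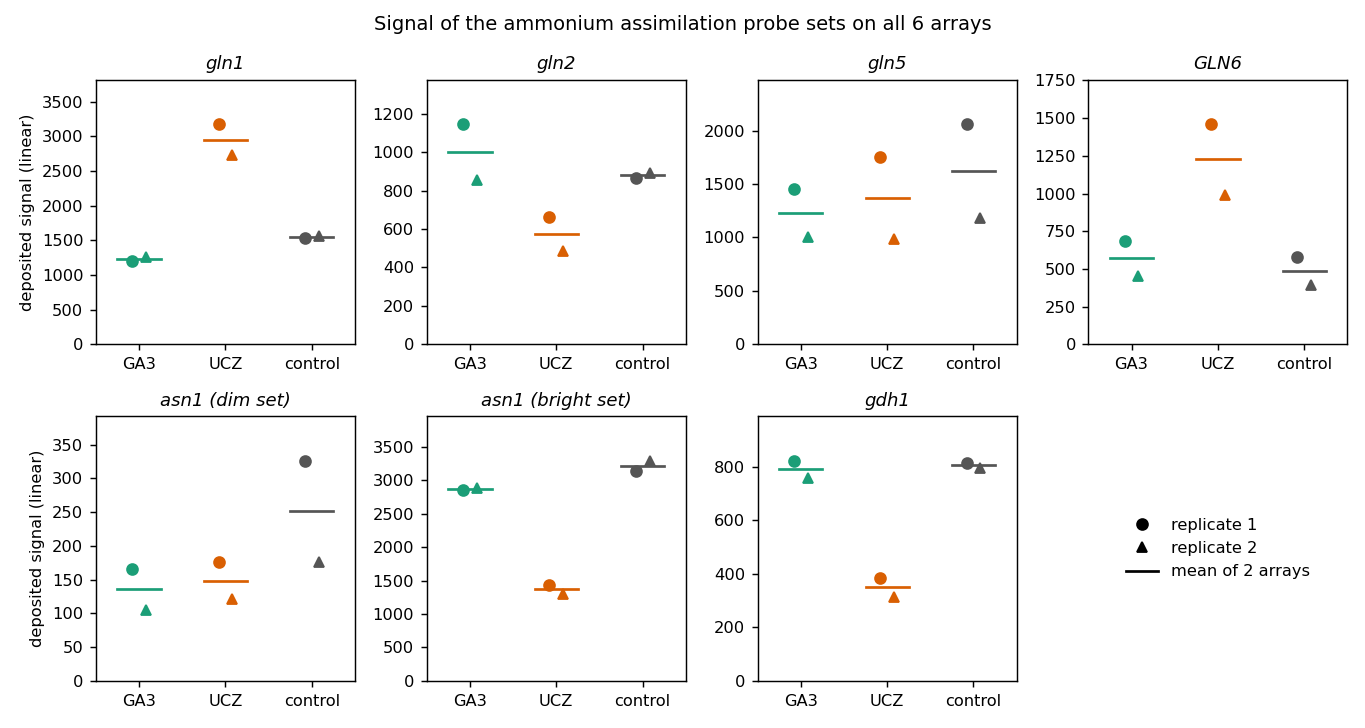
Deposited signal (linear scale, each panel with its own axis from 0) of the 7 probe sets, with circles for replicate 1, triangles for replicate 2 and lines for the mean of the 2 arrays in GA3, UCZ and control. The UCZ arrays lie above all others for gln1 and GLN6 and below all others for gln2, the brighter asn1 probe set and gdh1.

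The gln1 gene carries the synonym gs2, the name of the plastid glutamine synthetase. Its signal was 1204 and 1254 on the GA3 arrays, 3182 and 2728 on the UCZ arrays, and 1533 and 1567 on the control arrays. Both UCZ arrays lay above all the others and both GA3 arrays below all the others. Relative to control, gln1 was 1.89-fold higher in UCZ (log2 0.92, SE 0.12, adjusted p = 0.00416, limma), and the difference was 1.05 in replicate 1 and 0.79 in replicate 2. It was 2.38-fold lower in GA3 versus UCZ (log2 −1.25, SE 0.12, adjusted p = 0.00163). The log2 difference in GA3 versus control was −0.33, with a 95% interval of −0.61 to −0.05, which was not called (adjusted p = 0.32). The replicates of each group differed little, with means of 1229 ± 35.3 in GA3, 2955 ± 321 in UCZ and 1550 ± 24.4 in control (SD, n = 2 each). When arrays were scaled to the poly-A controls, gln1 was higher in UCZ versus control by a log2 value of only 0.24 and was no longer called (adjusted p = 0.528), and in GA3 versus UCZ its value was −0.44 (adjusted p = 0.233). Relative to the median of all probe sets it was 0.92 under that scaling and 0.95 without it in UCZ versus control.

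GLN6, whose synonym GS1-1 places it among the cytosolic forms, had the largest rise of the members in UCZ versus control. Its signal was 682.5 and 455.1 in GA3, 1462 and 992.9 in UCZ, and 575.8 and 396.1 in control. Both UCZ arrays lay above all the others, and the GA3 and control arrays overlapped. GLN6 was 2.47-fold higher in UCZ versus control (log2 1.31, SE 0.27, adjusted p = 0.0197), by 1.32 in replicate 1 and 1.29 in replicate 2. It was 2.13-fold lower in GA3 versus UCZ (log2 −1.09, SE 0.27, adjusted p = 0.038). In GA3 versus control the log2 difference was 0.22, with an interval from −0.42 to 0.85. In each group replicate 1 was brighter than replicate 2, by log2 values of 0.57 in GA3, 0.55 in UCZ and 0.52 in control. The call in UCZ versus control was lost without UCZ replicate 1 (log2 1.03, adjusted p = 0.0898), without control replicate 2 (1.05, adjusted p = 0.106) and under poly-A scaling (0.64, adjusted p = 0.0893). The GA3 versus UCZ call was lost without GA3 replicate 2 or UCZ replicate 1 (log2 −0.81 each, adjusted p = 0.151 and 0.154), without the filter on dim signals (adjusted p = 0.0636) and under poly-A scaling (−0.29, adjusted p = 0.406).

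The cytosolic form gln2, with the synonym gs1-2, differed in the other direction. Its signal was 1149 and 853.5 in GA3, 662.2 and 483.6 in UCZ, and 867.4 and 891.6 in control. Both UCZ arrays lay below all the others, while the GA3 arrays lay on either side of the control arrays. gln2 was 1.73-fold higher in GA3 versus UCZ (log2 0.79, SE 0.20, adjusted p = 0.0375). Its log2 difference in UCZ versus control was −0.62 (interval −1.08 to −0.17), not called without the replicate number as a block (adjusted p = 0.0712) and called with it (adjusted p = 0.00253). Under poly-A scaling this difference was −1.28 and was called (adjusted p = 0.000899), but relative to the median of all probe sets it was −0.604 with that scaling and −0.595 without it. The GA3 versus UCZ call was lost without GA3 replicate 1 (log2 0.58, adjusted p = 0.163), without UCZ replicate 2 (0.57, adjusted p = 0.178) and without either control array (adjusted p = 0.0598 and 0.0586). It was also lost without the filter (adjusted p = 0.0588) and in a fit to just the GA3 and UCZ arrays (0.0594), and held in 11 of 17 alternatives.

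The remaining cytosolic form, gln5 with the synonym gs1-4, was not called in any of the 3 comparisons. Its signal was 1455 and 1001 in GA3, 1754 and 984.9 in UCZ, and 2064 and 1186 in control, so all 3 groups overlapped. Replicate 1 was brighter than replicate 2 by 1.45-fold in GA3, 1.77-fold in UCZ and 1.73-fold in control, more than the groups differed. The log2 difference was −0.37 in GA3 versus control (interval −1.17 to 0.43), −0.25 in UCZ versus control and −0.12 in GA3 versus UCZ, with adjusted p = 0.785, 0.66 and 0.852. Under poly-A scaling gln5 was called lower in UCZ versus control (log2 −0.92, adjusted p = 0.021), where relative to the median of all probe sets it was −0.24. A further glutamine synthetase on the array, gln3 (synonym GS1-5), is not among the chosen genes. Its signal was 558.6 and 362.5 in GA3, 644.0 and 445.1 in UCZ, and 468.6 and 426.4 in control, and it was called in none of the 3 comparisons. Whether the probes tell these similar genes apart was not tested, since probe sequences were not used here.

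The brighter of the asn1 probe sets had the smallest adjusted p of the members in UCZ versus control. Its signal was 2853 and 2888 in GA3, 1440 and 1295 in UCZ, and 3133 and 3293 in control. The UCZ arrays lay far below the rest, and the GA3 arrays lay just below the control arrays without overlap. This asn1 probe set was 2.34-fold lower in UCZ versus control (log2 −1.22, SE 0.11, adjusted p = 0.000975), by −1.11 in replicate 1 and −1.34 in replicate 2. It was 2.09-fold higher in GA3 versus UCZ (log2 1.06, SE 0.11, adjusted p = 0.00212). In GA3 versus control the log2 difference was −0.16, with an interval from −0.42 to 0.09 (adjusted p = 0.669).

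The dimmer asn1 probe set gave another picture. Its signal was 166.0 and 105.5 in GA3, 175.7 and 121.2 in UCZ, and 326.4 and 175.9 in control. Control replicate 1 stood above every other array, and control replicate 2 was level with UCZ replicate 1. The log2 difference was −0.79 in GA3 versus control (interval −1.54 to −0.03, adjusted p = 0.388), −0.66 in UCZ versus control (adjusted p = 0.203) and −0.13 in GA3 versus UCZ (adjusted p = 0.837). With the replicate number as a block it was called lower in GA3 versus control (adjusted p = 0.00516), where 8.19% of all probe sets were called in either direction. With the block it was also called lower in UCZ versus control (adjusted p = 0.00462), where 34.6% were called in either direction. The probe sets of asn1 therefore disagreed on GA3: the dimmer one placed the GA3 arrays beside UCZ, and the brighter one placed them near control. Over the 6 arrays their log2 values correlated at r = 0.35, a description over arrays that fall into 3 groups.

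For gdh1 the signal was 823.2 and 758.9 in GA3, 382.9 and 315.0 in UCZ, and 813.3 and 796.8 in control. Both UCZ arrays lay below all the others, and the GA3 and control arrays overlapped. gdh1 was 2.26-fold lower in UCZ versus control (log2 −1.18, SE 0.14, adjusted p = 0.00306), by −1.06 in replicate 1 and −1.30 in replicate 2. It was 2.22-fold higher in GA3 versus UCZ (log2 1.15, SE 0.14, adjusted p = 0.00357). In GA3 versus control the log2 difference was −0.03, with an interval from −0.35 to 0.30. The calls of gdh1 and of the brighter asn1 probe set in UCZ versus control and in GA3 versus UCZ held under each of the 17 alternatives run.

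**Figure D2:**
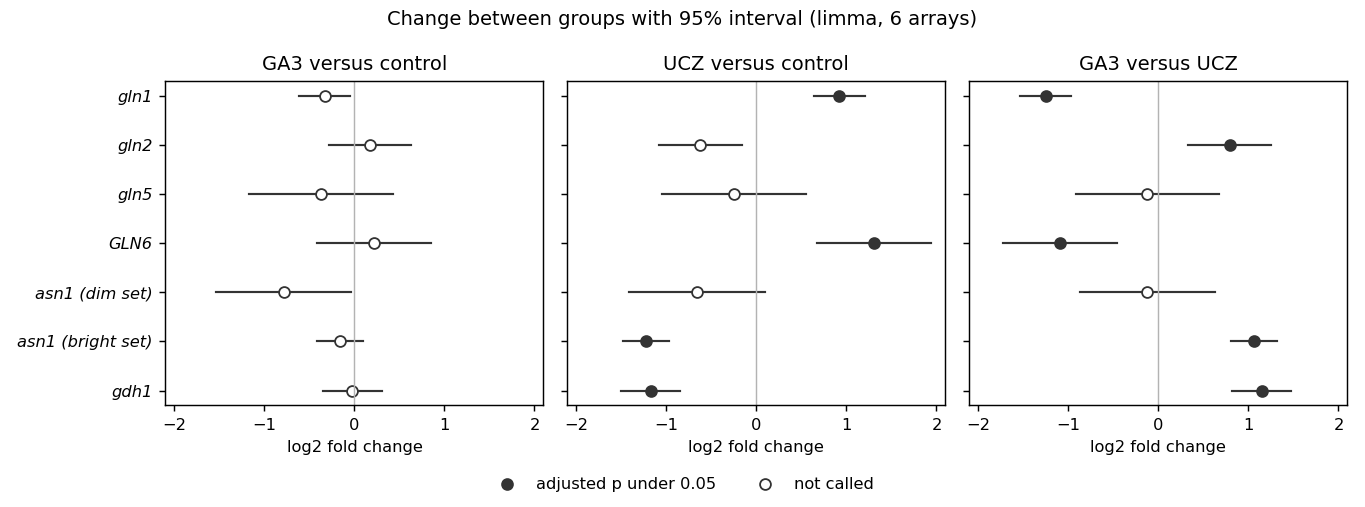
Log2 fold change of each member probe set in the 3 comparisons, with bars for the 95% interval of the limma fit over 6 arrays and filled points for an adjusted p under 0.05. The intervals of gln1 and GLN6 lie above 0 and those of the brighter asn1 probe set and gdh1 below 0 in UCZ versus control, and no point is filled in GA3 versus control.

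Counting arrays without a model, the UCZ and control arrays did not overlap for 6 of the 7 probe sets, 2 of them higher and 4 lower in UCZ, beside 28.3% higher and 32.7% lower among all probe sets tested (61.1% together). GA3 and control arrays did not overlap for 3 of the 7, all lower in GA3 (gln1 and both asn1 probe sets), beside 18.5% of all probe sets lower without overlap and 21.6% higher (40.1% together). GA3 and UCZ arrays did not overlap for 5 of the 7, 3 higher and 2 lower in GA3, beside 32.3% higher and 25.2% lower of all (57.5% together). With the replicate number as a block, the same counts of 3 higher and 2 lower members were called in GA3 versus UCZ, beside 30.9% of all probe sets. The median log2 change over the 7 probe sets was −0.16 in GA3 versus control, −0.62 in UCZ versus control and −0.12 in GA3 versus UCZ. Over all probe sets tested it was 0.02, −0.03 and 0.04.

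The balance of glutamine to asparagine synthesis was described, with no test, as the mean log2 signal of the 4 glutamine synthetases minus that of the brighter asn1 probe set on the same array. Only its change between arrays can be read, and apart from the 16 added before the log2 it does not depend on how an array was scaled. Relative to the control mean the balance was 0.27 and −0.11 on the GA3 arrays, 1.74 and 1.39 on the UCZ arrays, and 0.19 and −0.19 on the control arrays. Both UCZ arrays thus lay above all the others, towards glutamine synthetase, and the GA3 arrays overlapped the control arrays. Most of the shift in UCZ lay in asn1, which was −1.15 and −1.30 relative to its control mean. The mean of the 4 glutamine synthetases was 0.59 and 0.08 in UCZ, overlapping 0.16 and −0.16 in control. The ratio was 2.96-fold higher in UCZ versus control (log2 1.56; 1.55 in replicate 1 and 1.58 in replicate 2). It was 2.79-fold lower in GA3 versus UCZ (log2 −1.48), and in GA3 versus control the log2 difference was 0.08 in both replicates.

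Gene by gene, the ratio to asn1 in UCZ versus control was 5.78-fold higher for GLN6, 4.42-fold for gln1, 1.97-fold for gln5 and 1.52-fold for gln2. For gln2 and gln5, whose own log2 differences were below 0, the ratio was above 1 because asn1 was lower by more. With the dimmer asn1 probe set in its place, an alternative chosen after the values were seen, the log2 change of the balance was 0.71 in GA3 versus control, 1.00 in UCZ versus control and −0.29 in GA3 versus UCZ. The size of the shift in UCZ, and whether GA3 differed from control, therefore depend on which asn1 probe set is read. Transcript ratios say nothing of enzyme activity or amide content, which were not measured here.

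**Figure D3:**
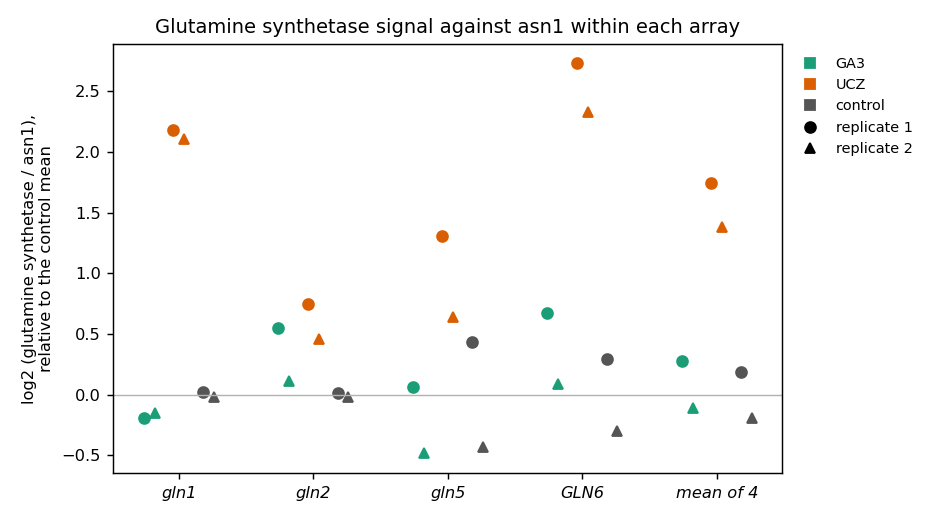
Log2 ratio of each glutamine synthetase signal, and of the mean of all 4, to the brighter asn1 probe set on the same array, relative to the control mean, with circles for replicate 1 and triangles for replicate 2. The UCZ arrays lie highest for the mean of 4, at 1.74 and 1.39, and the GA3 arrays at 0.27 and −0.11 overlap the control arrays.

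Among themselves, the members fell into opposed patterns over the 6 arrays, given as a description since the arrays share 3 groups. The brighter asn1 probe set and gdh1 correlated at r = 0.99, gln2 and gdh1 at 0.92, and gln1 and GLN6 at 0.84. gln1 correlated with gdh1 at −0.93 and with the brighter asn1 probe set at −0.91. gln5 correlated best with the dimmer asn1 probe set, at 0.89, and both of these were brighter in replicate 1 in all 3 groups. Of 890 probe sets of 1 named gene, those most like gln1 were lox3 (a lipoxygenase, r = 0.99), sig2A (a plastid sigma factor, 0.98) and NBP (0.97). gln2 was most like ZCAX2 (0.99) and the glutathione transferases GST38 and gst13 (0.98 each). gln5 was most like elfa2 (by both of its probe sets, 0.95 each) and sir, a sulfite reductase (0.95). Those most like GLN6 were PLTP (0.99), a probe set with the names chs1 and minE (0.99) and toc34B (a plastid import receptor, 0.98). Those most like the brighter asn1 probe set were expB4 (a beta-expansin, which loosens cell walls, 0.99), cesa10 (a cellulose synthase, 0.99) and MPK5 (a MAP kinase, 0.99). Those most like gdh1 were tua6 (an alpha-tubulin, 0.996), gpc4 (a glyceraldehyde-3-phosphate dehydrogenase, 0.99) and wip1 (a wound-induced proteinase inhibitor, 0.99).

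Genes upstream of ammonium were mostly dim. Of 10 probe sets for nitrate uptake and reduction (nar, NR, NNR1, Nrt1.1, nrt2.1 and NIR), 1 passed the filter, and the brightest signal among the others was 91.3. In the fit without a filter, nrt2.1, a nitrate transporter, was called higher in UCZ versus control (log2 1.19, adjusted p = 0.0185), with 63.5 and 76.4 in UCZ against 26.3 and 17.3 in control, and lower in GA3 versus UCZ (−0.95, adjusted p = 0.041). NNR1, with 25.6 and 34.9 in GA3 against 87.8 and 91.3 in UCZ, was called lower in GA3 versus UCZ in that fit (−1.20, adjusted p = 0.0175). Of all 17621 probe sets, that fit called 541 higher and 884 lower in UCZ versus control. In GA3 versus UCZ it called 687 higher and 523 lower. The probe set that passed was NIR, nitrite reductase, which makes ammonium in the plastid. Its signal was 230.1 and 299.4 in GA3, 185.2 and 202.0 in UCZ, and 304.4 and 259.9 in control. NIR had, in UCZ versus control, a log2 difference of −0.51 (adjusted p = 0.089, or 0.0221 with the replicate block), while gln1, for the plastid enzyme that takes up its product, was 1.89-fold higher.

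The aspartate-family list holds genes that make or break down the amino acids derived from aspartate, the acceptor of asparagine synthetase. Of its 8 probe sets 6 passed the filter, and 1 was called in UCZ versus control, beside 15.4% of all probe sets tested. It is for a breakdown enzyme and not for one that uses aspartate. lkrsdh1, the enzyme that begins lysine breakdown, was lower in UCZ versus control, with 445.8 and 397.9 in UCZ against 828.9 and 761.2 in control (log2 −0.89, adjusted p = 0.0151). The call was lost without UCZ replicate 2 (adjusted p = 0.079), control replicate 1 (0.0801) or control replicate 2 (0.063). cgs1, which starts methionine synthesis, had a log2 difference of −0.46 in UCZ versus control (adjusted p = 0.0968, or 0.0286 with the block), and AK1, an aspartate kinase, had 0.37 (adjusted p = 0.207). Among the 7 probe sets of other amino acid synthesis, 1 was higher and 2 were lower in UCZ versus control, beside 6.44% and 8.97% of all probe sets. With the block 3 were higher and 2 lower, where 34.6% of all probe sets were called. The calls named next are those without the block. bx1, which turns the tryptophan precursor indole-3-glycerol phosphate towards benzoxazinoid defence compounds, was higher (log2 0.78, adjusted p = 0.00622). Under poly-A scaling its value was 0.10 and not called (adjusted p = 0.809), or 0.78 relative to the median of all probe sets. igl1, which makes free indole, was lower (−0.74, adjusted p = 0.0322), as was sat1, a serine acetyltransferase on the route to cysteine (−0.95, adjusted p = 0.0181). The igl1 call was lost without any one of the UCZ and control arrays (adjusted p = 0.0557 to 0.175), and the sat1 call without UCZ replicate 1, UCZ replicate 2 or control replicate 1 (0.0527, 0.0986 and 0.0927). In GA3 versus UCZ 2 of these 7 were higher and 3 lower with the block, where 30.9% of all probe sets were called. Without the block igl1 was higher in GA3 versus UCZ (log2 1.08, adjusted p = 0.0089), and bx1 (−0.60, adjusted p = 0.0163) and orp2, a tryptophan synthase beta subunit gene (−0.76, adjusted p = 0.0355), were lower. The last 2 calls were each lost without GA3 replicate 1 or either UCZ array (adjusted p = 0.0542 to 0.149).

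The carbon skeletons for ammonium come from organic acids. Of 14 such probe sets 10 passed the filter, and 1 was called in UCZ versus control, beside 15.4% of all probe sets tested. It was pDCT2, a plastid dicarboxylate transporter, with 345.9 and 465.2 in UCZ against 793.6 and 904.8 in control (log2 −1.05, adjusted p = 0.0133). Its call was lost without UCZ replicate 1 (adjusted p = 0.0652) or control replicate 2 (0.0824). With the block 1 of the 10 was higher and 2 were lower in UCZ versus control, where 34.6% of all probe sets were called. In GA3 versus UCZ 2 were higher and 3 lower with the block, where 30.9% were called. Below the filter, PPCK1 had 57.4 and 57.2 in UCZ against 132.2 and 117.0 in control. In the limma fit without a filter it was called lower in UCZ versus control (log2 −0.94, adjusted p = 0.0298). Without the block, the phosphoenolpyruvate carboxylase gene pep4 was higher in GA3 versus UCZ (log2 0.63, adjusted p = 0.0452). In that comparison pep1, the carboxylase of C4 leaves (−0.62, adjusted p = 0.013), and the plastid oxoglutarate/malate transporter pOMT1 (−0.71, adjusted p = 0.0222) were lower. The pep4 call was lost without each of the 6 arrays in turn (adjusted p = 0.0569 to 0.222), the pep1 call without GA3 replicate 2 (0.0508) or UCZ replicate 2 (0.0831), and the pOMT1 call without GA3 replicate 1 (0.11), UCZ replicate 1 (0.0561) or UCZ replicate 2 (0.124). None of the 6 probe sets of SnRK1 and TOR kinases, which sense sugar and nitrogen supply, was called in UCZ versus control by limma. Over all probe sets 15.4% were, and 2 of the 6 had an unadjusted p under 0.05. The closest was akin1, with a log2 difference of −0.57 (adjusted p = 0.0505, or 0.00749 with the block), and S6K had −0.52 (adjusted p = 0.0771, or 0.0201 with the block). In GA3 versus control limma called none in these lists, where 2 of 6 aspartate-family, 1 of 7 other amino acid, 3 of 10 carbon skeleton and 1 of 6 kinase probe sets had an unadjusted p under 0.05. With the replicate block, 2 aspartate-family and 3 carbon skeleton probe sets were called lower in GA3 versus control. Of all 10573 probe sets, 8.19% were called there in either direction, 539 of them lower. These were lkrsdh1 (log2 −0.54, adjusted p = 0.0145 with the block and 0.253 without), cgs1 (−0.56, 0.0342 and 0.21), pDCT2 (−0.62, 0.00472 and 0.247), pep1 (−0.57, 0.00208 and 0.0719) and pOMT1 (−0.68, 0.00106 and 0.0958).

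Leaf genes are given beside gln1 because the plastid enzyme is abundant in leaves. Of 24 leaf photosynthesis probe sets 22 passed the filter, and their summed signal was 80076 and 86122 in GA3, 106541 and 113973 in UCZ, and 106952 and 111376 in control. Of these, 1 was higher and 1 lower in UCZ versus control (median log2 change 0.05), beside 6.44% and 8.97% of all probe sets. In GA3 versus UCZ 9 of the 22 were lower and none higher (median −0.44), beside 6.33% of all probe sets called lower, and in GA3 versus control 3 were lower and none higher (median −0.35), beside 0.842%. With the replicate block 17 were lower in GA3 versus UCZ, where 30.9% of all probe sets were called in either direction (1471 of 10573 lower). In GA3 versus control 12 were lower with the block, where 8.19% were called in either direction (539 of 10573 lower). In UCZ versus control 3 were higher and 4 lower with the block, where 34.6% were called. Under poly-A scaling the leaf median in GA3 versus UCZ turned to 0.38, with 1 called higher and 0 lower. In GA3 versus control 0 were then called. Relative to the median of all probe sets, where that scaling nearly cancels, the leaf median in GA3 versus UCZ was −0.48, and −0.45 under poly-A scaling. The C4 enzyme gene me3 was lower in both comparisons with control (log2 −1.10 in GA3, adjusted p = 0.00563, and −1.30 in UCZ, adjusted p = 0.00105), although its GA3 call was lost without either control array (adjusted p = 0.0611 and 0.0519) and under poly-A scaling (0.22). L-FNRII, a ferredoxin reductase (−0.98, adjusted p = 0.00475), and mdh6, a malate dehydrogenase (−0.71, adjusted p = 0.0065), were lower in GA3 versus UCZ. Under poly-A scaling their values there were −0.16 and 0.11, and neither was called lower. In UCZ versus control L-FNRII had a log2 difference of 0.36 (adjusted p = 0.111, or 0.0284 with the block). There mdh6 had 0.33 (adjusted p = 0.0771, or 0.0198 with the block). In the main fit the leaf list thus moved with gln1 between GA3 and UCZ, but under poly-A scaling gln1 was −0.44 there and the leaf median 0.38. UCZ and control, between which gln1 differed 1.89-fold, overlapped in the summed signal of the leaf list. The part of the leaf list in the gln1 result was not tested. Of the other marker lists, 2 of 14 kernel, 1 of 8 root and 2 of 4 reproductive probe sets passed the filter. The kernel transfer-layer gene betl4 had 79.4 and 88.8 in GA3, 293.2 and 264.7 in UCZ, and 90.9 and 59.6 in control. It was 3.28-fold higher in UCZ versus control (log2 1.71, adjusted p = 0.00295) and lower in GA3 versus UCZ (−1.56, adjusted p = 0.00413), the same directions as gln1 and GLN6. The other kernel probe set that passed, for the zein gene gz27, had a log2 difference of 0.36 in UCZ versus control (adjusted p = 0.178). The summed kernel signal was 371.1 and 300.5 in GA3, 521.2 and 490.6 in UCZ, and 329.2 and 270.8 in control. That sum includes betl4, whose signal differed between UCZ and control by about as much as the sum did. The 12 kernel probe sets below the filter had signals of at most 44.4 and differed in both directions. Among them glb3 went opposite to betl4, with 44.4 and 19.1 in GA3 against 2.97 and 1.21 in UCZ. In the limma fit without a filter it was called higher in GA3 versus UCZ (log2 1.35, adjusted p = 0.0364). Of the reproductive list, M2 was higher in GA3 versus UCZ (log2 1.23, adjusted p = 0.00539) and had −0.46 in UCZ versus control (adjusted p = 0.117), where m19 had −0.32 (adjusted p = 0.189). The root gene pht1, a phosphate transporter, had −0.19 (adjusted p = 0.347). The part of these genes in the member results was not tested. No list of mesocotyl markers was used, so the labelled tissue was not checked.

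**Figure D4:**
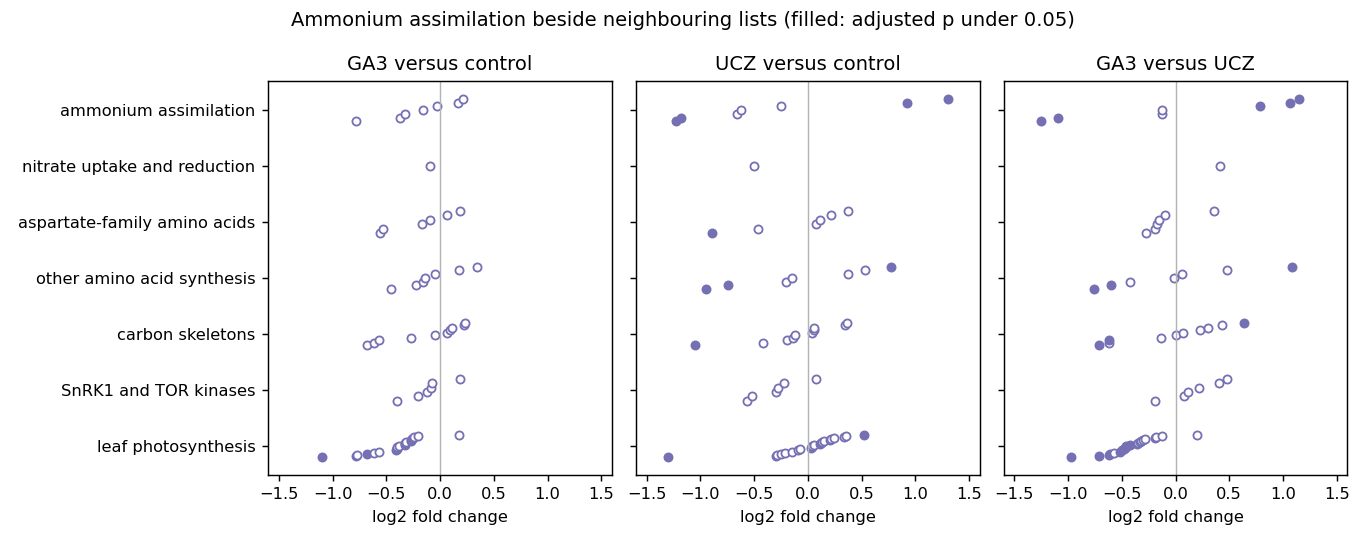
Log2 fold change of each probe set that passed the filter, by list, in the 3 comparisons, with filled points for an adjusted p under 0.05. In UCZ versus control 15.4% of all probe sets tested were called. Filled there are 4 of 7 ammonium assimilation probe sets, 1 of 6 in the aspartate family, 3 of 7 in other amino acid synthesis and 1 of 10 in carbon skeletons. None of 6 is filled among the kinases, nor is the 1 nitrate probe set, and of 22 leaf probe sets 1 is filled higher and 1 lower. The members and lists were chosen with earlier results known, so these shares are a description and not a comparison of lists.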

How the data were processed

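Each probe set has 1 linear signal intensity for each array, as deposited by the authors and made with GCOS and MAS5 per the submitters' processing notes. The sources used here give no versions or settings. After removal of 113 control probe sets, signals were turned into log2(signal + 16), which understates changes of dim genes, and the brightest 60% of the other 17621 probe sets by mean over the 6 arrays were kept (10573). A model of group means was fitted to all arrays with limma 3.58.1 in R 4.3.3 (lmFit, eBayes with trend, 3 residual and 4.52 prior degrees of freedom). Tests were two-sided, adjusted by Benjamini-Hochberg over all probe sets kept, with a threshold of 0.05. No test was made on the balance of glutamine synthetases to asn1.

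Replicates carry the numbers 1 and 2 in every group. Since the series describes independent experiments, arrays that share a number were set against each other in the differences given by replicate. The main fit, with its SE, intervals and adjusted p, does not use this pairing. Deviations of same-numbered arrays from their group means correlated at 0.664 (GA3 and control), 0.724 (UCZ and control) and 0.755 (GA3 and UCZ). A fit that keeps this number as a block was an alternative. It is given beside each member result whose call it changes, but not beside every list result. No source ties arrays to separate plants. The p-values set group differences against the spread between arrays of a group, which limma moderates over all probe sets.

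Names came from the platform annotation and the RefSeq gene table, which name 1 gene for 1452 probe sets. Symbols were matched exactly, and a probe set of another gene, nac4, that carries the synonym Asn1 was left out. Named by rule were all member probe sets, all nitrate probe sets, up to 3 probe sets of each other list, marker lists included, with the smallest F-test p, and the 3 probe sets most like each member; list genes called in a comparison were added after their values were seen. The patterns first written for the aspartate, other amino acid and carbon lists matched nothing. All lists used here, the kinase list included, were built from gene names chosen later. The first patterns had matched 11 leaf, 8 kernel, 6 nitrate, 7 root and 3 reproductive probe sets. The later names matched 24, 14, 10, 8 and 4. The members and lists were chosen with earlier results of these data known. Alternatives were median, quantile and poly-A scaling (12 bacterial probe sets), adding 1 or 64 in place of 16, no filter or the brightest 40%, a robust or untrended prior, a fit to just the 2 groups compared, the block, and leaving out each array. The steps were tested on simulated data. Figures were drawn with matplotlib 3.10.9.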

Additional observations from a re-analysis of the deposited data

How the results depend on the processing

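Of the 9 member calls in the 3 comparisons, none changed direction under any alternative, 4 held under all of them and 6 held on leaving out each array. Of the 12 member results that were not called, 7 changed sign somewhere. With the replicate number as a block, 1 member was called in GA3 versus control in place of 0. In GA3 versus UCZ 3 members were called under poly-A scaling and 3 without a filter, in place of 5. Leaving out each array gave 0 members in GA3 versus control, 3 to 4 in UCZ versus control and 4 in GA3 versus UCZ. The balance changed by −0.11 to 0.27, 1.37 to 1.75 and −1.67 to −1.29 in these leave-outs, and in GA3 versus control it was −0.11 without GA3 replicate 1 and −0.11 without control replicate 2. With the dimmer asn1 probe set it was 0.71, 1.00 and −0.29 in GA3 versus control, UCZ versus control and GA3 versus UCZ. Over all probe sets, 140, 1629 and 1474 were called in these comparisons, against 866, 3662 and 3271 with the block. Leaving out an array of the groups compared gave 51 to 77, 552 to 683 and 541 to 738. Poly-A scaling called 4282 in UCZ versus control (25 higher, 4257 lower; 681 and 948 without it) and 6708 in GA3 versus UCZ (6686 higher, 22 lower; 805 and 669 without it), and the brightest 40% gave 78 in GA3 versus control. In UCZ versus control poly-A scaling left 0 members higher and 5 lower. Leaving out arrays gave both signs in GA3 versus control for gln2 (log2 −0.042 to 0.38), gln5 (−0.77 to 0.024), GLN6 (−0.068 to 0.50), gdh1 (−0.084 to 0.032) and gln3 (−0.29 to 0.31). It did so in UCZ versus control for gln5 (−0.66 to 0.16), gln3 (−0.0059 to 0.51), pep1 (−0.070 to 0.18) and pOMT1 (−0.069 to 0.14), and in GA3 versus UCZ for gln5 (−0.53 to 0.29), the dimmer asn1 probe set (−0.42 to 0.17) and gln3 (−0.54 to 0.059). Quantile normalization turned pep1 to −0.024 in UCZ versus control. Poly-A scaling, which moved the median of all probe sets to 0.15, −0.68 and 0.83 in the 3 comparisons, gave gdh1 0.11 in GA3 versus control. In UCZ versus control it gave gln3 −0.41, AK1 −0.26, pep1 −0.63, pOMT1 −0.64, L-FNRII −0.32, mdh6 −0.35 and gz27 −0.25. In GA3 versus UCZ the poly-A values were 0.69 for gln5, 0.61 for the dimmer asn1 probe set, 0.55 for gln3, 0.22 for bx1, 0.20 for pep1, 0.11 for mdh6, 0.095 for pOMT1 and 0.035 for orp2. These poly-A sign changes come with the common shift of each array. Values relative to the median of all probe sets stay nearly the same under such a shift, whatever the genes do. That all 69 changes examined kept their sign against that median, moving by at most 0.11, therefore favours neither scaling. Causes of the other sign changes were not tested, nor was which scaling is right.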
